A study of Homo sapiens with 12 samples.

Results

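The integrated stress response was followed here through 10 genes, namely ATF4 and 9 genes known as its targets: ATF3, DDIT3, TRIB3, CHAC1, ASNS, PSAT1, PHGDH, SESN2 and VLDLR. They were chosen by gene symbol with earlier results of these data known, and each had 1 transcript cluster annotated with its symbol alone. All 10 of them were among the 14940 genes tested out of 22411 genes with a cluster of their own. The study profiled RNA of MDA-MB-231, a human triple-negative breast cancer cell line, on 12 arrays, with 3 arrays in each of 4 groups. All groups were transfected with Lipofectamine RNAiMAX for 48 h with 50 nM of an oligonucleotide: the mirVana Negative Control #1 (control), the mirVana mimic of miR-183-5p (archetype), or a custom mimic of the isomiR with both ends shifted by -2 nt (minus2) or by 2 nt (plus2). A microRNA mimic is a short synthetic RNA that acts as the microRNA does, and an isomiR is a form of a microRNA with different ends. Untransfected cells were not analysed here, so every change below is a change from cells given the control oligonucleotide. Nothing in the labels says whether replicate arrays stand for separate cultures, so the p-values cover only the variation among these arrays, and that variation may be technical.

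In the integrated stress response, kinases that sense unfolded proteins, missing amino acids, double-stranded RNA or lack of haem phosphorylate the initiation factor eIF2. General translation then slows while translation of ATF4 mRNA increases, and the ATF4 protein switches on genes of amino acid supply, redox balance and, through DDIT3, cell death. ATF4 is therefore regulated largely at the level of its protein, which was not measured in these samples. The signals come from total RNA of whole cultures, so fewer expressing cells and less RNA per cell cannot be told apart.

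The mimics differ in the stretch that pairs with target transcripts. They are written as DNA from the 5′ end, with the seed (nucleotides 2 to 8) in capitals. The sequences of minus2 and plus2 come from the labels and that of the archetype from RefSeq with U written as T, where it lies at chr7:129774967-129774988 on the minus strand of GRCh38.p14 in MIR183.
minus2: tGTATGGCactggtagaattca
archetype: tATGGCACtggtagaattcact
plus2: tGGCACTGgtagaattcactgt
The series' design text gives the first end of minus2 without its minus sign. The labels were followed, and the labelled sequence of minus2 begins 2 nt before that of the archetype. Each mimic has 22 nt, the 3 of them share a stretch of 18 nt, and no seed is the same as another.

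Genes known to be high in this mesenchymal line were high here, with VIM at percentile 98.6, CD44 at 99.0 and AXL at 99.6 of gene means, whereas the hormone receptor genes ESR1 and PGR were below the signal limit for testing. The defining leukocyte genes PTPRC and ITGAM and the fibroblast genes DCN, LUM, PDGFRA and FAP were below it too. Other markers were above it, among them the luminal genes KRT19 (percentile 97.2) and EPCAM (79.1), CD68 (98.3), LAPTM5 (98.0) and 5 others of the leukocyte list (36.5 to 47.6), and the fibroblast gene COL1A2 (37.7). Some of these marker lists moved between groups, with plus2 showing 2 rises and 6 falls among 8 mesenchymal and basal markers, 2 rises and no fall among 5 tested luminal markers, and 1 rise and 3 falls among 7 tested leukocyte markers. The leukocyte list summed to a linear signal of 31601 to 34727 on control arrays and of 15649 to 20016 on mimic arrays, mostly through LAPTM5 (mean log2 signal 14.24 in control and 12.36 to 13.20 with the mimics). The mesenchymal and basal list summed to 157856 to 160730 in control and 109033 to 110800 with plus2. Of this list MSN fell most, from a mean log2 signal of 15.31 in control to 13.1 with plus2. The part of these shifts in the results below was not tested. Correlations of replicate arrays lay between 0.995 and 0.997, no arrays held identical values, and the replicate SD, as a median over genes, ranged from 0.0576 log2 units with minus2 to 0.0827 with plus2.

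The 10 genes did not move as a block. ASNS and DDIT3 rose with each of the 3 mimics, VLDLR was called against control with plus2 alone and rose, TRIB3 fell with plus2 and rose slightly with minus2, ATF3 rose with the archetype and plus2, and CHAC1 rose with minus2. PSAT1, PHGDH and SESN2 did not pass the test against control with any mimic. A gene is said to have risen or fallen where limma's adjusted p (Benjamini-Hochberg over all 14940 genes) was under 0.05, and values are log2 signals, on which a difference of 1 is a doubling of the signal.

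**Figure D1:**
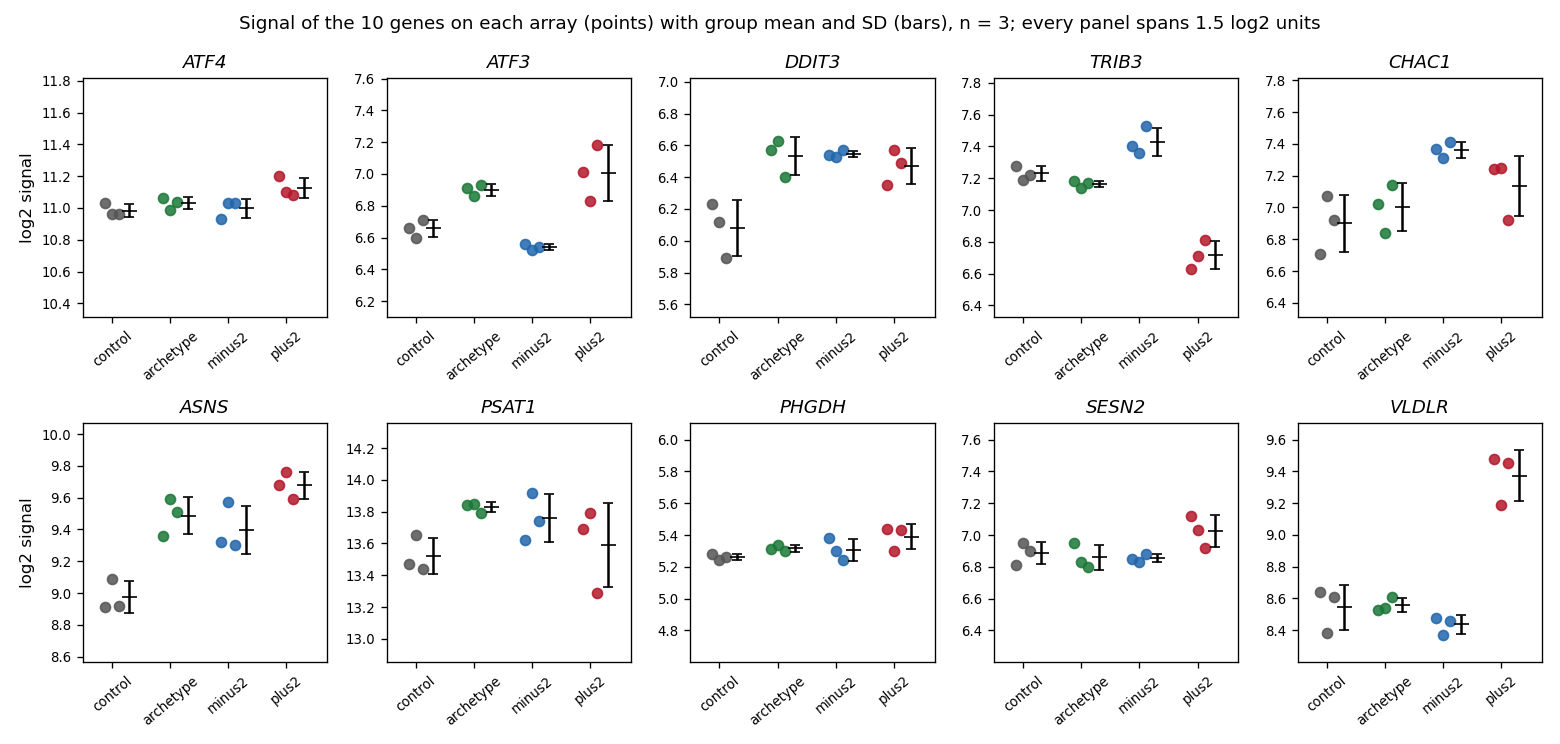
Log2 signal (vertical axis, a span of 1.5 log2 units in every panel) of each of the 10 genes on the 3 arrays of each group (points), with the group mean and SD beside them. The 3 plus2 arrays of VLDLR lie between 9.19 and 9.48 and above all other arrays, those of TRIB3 lie between 6.63 and 6.81 and below all others, and the 3 control arrays of ASNS and of DDIT3 lie below all 9 mimic arrays.

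With the archetype 3 of the 10 genes rose and none fell, where 14.3% of all genes tested rose and 10.3% fell. With minus2 4 rose and none fell, where 17.5% of all genes rose and 11.9% fell. With plus2 5 rose and 1 fell, where 17.4% of all genes rose and 16.2% fell. The median change of the 10 genes was 0.08 log2 units for the archetype, and those for minus2 and plus2 were 0.12 and 0.19, against medians over all genes tested of 0.01, 0.01 and 0.00. The arrays of the 2 groups did not overlap for 6 of the 10 genes between archetype and control, 5 between minus2 and control and 7 between plus2 and control, and for 41.2%, 44.9% and 42.8% of all genes. These comparisons share the 3 control arrays. Because the 10 genes were chosen with earlier results of these data known, their counts and medians are descriptions. By the moderated F test for any difference among the 4 groups, 6 of the 10 genes passed (ATF3, DDIT3, TRIB3, CHAC1, ASNS and VLDLR), beside 51.7% of all genes.

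**Figure D2:**
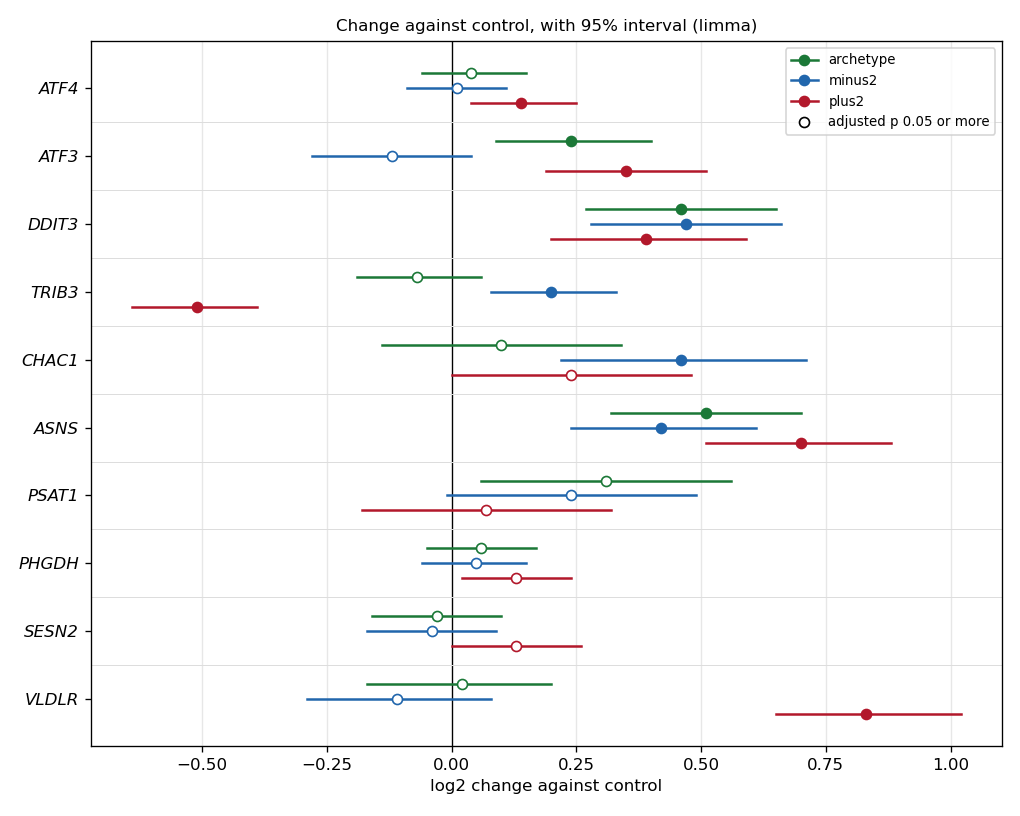
Log2 change of each gene against control (horizontal axis) with the archetype, minus2 and plus2, with its 95% interval from limma. Filled points passed the test: only ASNS (0.42 to 0.70) and DDIT3 (0.39 to 0.47) are filled for all 3 mimics.

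ATF4, the transcription factor at the centre of the response, was called against control with plus2 alone, where it rose by a small amount. Its signal was 11.03, 10.96 and 10.96 on the control arrays, 11.06, 10.99 and 11.04 with the archetype, 10.93, 11.03 and 11.03 with minus2, and 11.20, 11.10 and 11.08 with plus2. The plus2 arrays were above all others and the other 3 groups overlapped. The change with plus2 was 0.14 ± 0.05 (SE), 1.10-fold, with an adjusted p of 0.0368 in limma, and with the archetype and minus2 it was 0.04 ± 0.05 and 0.01 ± 0.05. The 95% intervals of these last changes ran from -0.06 to 0.15 and from -0.09 to 0.11. The plus2 call was lost without the filter on dim genes (adjusted p = 0.0635), after centring the arrays on their medians (adjusted p = 0.105), in a fit of the 2 groups alone (adjusted p = 0.0994), and without control replicate 2 (adjusted p = 0.103), control replicate 3 (adjusted p = 0.104), archetype replicate 3 (adjusted p = 0.0519) or plus2 replicate 1 (adjusted p = 0.132). In the order of group means, plus2, archetype, minus2 and control, no neighbours differed in the test.

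ASNS encodes asparagine synthetase, which makes asparagine from aspartate and glutamine and is a classical ATF4 target. The control arrays read 8.91, 9.09 and 8.92, the archetype arrays 9.36, 9.59 and 9.51, the minus2 arrays 9.32, 9.57 and 9.30, and the plus2 arrays 9.68, 9.76 and 9.59. Every mimic array was above every control array. ASNS rose by 0.51 ± 0.08 (SE), 0.42 ± 0.08 and 0.70 ± 0.08 with archetype, minus2 and plus2, which is 1.42-fold, 1.34-fold and 1.62-fold (limma adjusted p = 0.000957, 0.00277 and 6.15e-05). All 3 rises passed under each of the 21 alternatives tried, 12 of which left out 1 array.

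DDIT3 encodes CHOP, a transcription factor induced by ATF4 that promotes cell death under lasting stress. It read 6.23, 6.12 and 5.89 in control, 6.57, 6.63 and 6.40 with the archetype, 6.54, 6.53 and 6.57 with minus2, and 6.35, 6.57 and 6.49 with plus2. The mimic arrays were again all above the control arrays, and the 3 mimics overlapped each other. The rises were 0.46 ± 0.09 (SE), 0.47 ± 0.09 and 0.39 ± 0.09 log2 units (limma adjusted p = 0.00237, 0.00172 and 0.0043). No difference in DDIT3 between mimics passed the test, and the 95% intervals of the differences ran from -0.18 to 0.20 for minus2 minus archetype, from -0.26 to 0.13 for plus2 minus archetype and from -0.27 to 0.12 for plus2 minus minus2.

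TRIB3, a pseudokinase that is induced by ATF4 and DDIT3 and that restrains ATF4 in a feedback loop, did not follow DDIT3. Its signal was 7.28, 7.19 and 7.22 in control, 7.18, 7.14 and 7.17 with the archetype, 7.40, 7.36 and 7.53 with minus2, and 6.63, 6.71 and 6.81 with plus2. The plus2 arrays were the lowest and the minus2 arrays the highest, with no overlap of either with control. TRIB3 fell with plus2 by 0.51 ± 0.06 log2 units (SE), to a signal 1.43-fold lower (limma adjusted p = 3.34e-05), and rose with minus2 by 0.20 ± 0.06 (adjusted p = 0.0199). With the archetype it was at -0.07 ± 0.06 (adjusted p = 0.466). The rise with minus2 did not pass without control replicate 2 (adjusted p = 0.0713), control replicate 3 (adjusted p = 0.0568) or minus2 replicate 3 (adjusted p = 0.0863), whereas the fall with plus2 passed in every fit tried.

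ATF3 is a stress-induced transcription factor of the same bZIP class and lies downstream of ATF4. The arrays read 6.66, 6.60 and 6.71 in control, 6.91, 6.86 and 6.93 with the archetype, 6.56, 6.52 and 6.54 with minus2, and 7.01, 6.83 and 7.18 with plus2. Archetype and plus2 arrays lay above the control arrays and overlapped each other, and the minus2 arrays lay below. ATF3 rose with plus2 by 0.35 ± 0.07 (SE; limma adjusted p = 0.00289) and with the archetype by 0.24 ± 0.07 (adjusted p = 0.0288), and its change with minus2 of -0.12 ± 0.07 did not pass (adjusted p = 0.264). The archetype call was lost without any 1 of the 3 archetype arrays (adjusted p = 0.0762, 0.051 and 0.0864 for replicates 1, 2 and 3), without control replicate 1 (adjusted p = 0.0685) and without control replicate 2 (adjusted p = 0.099).

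CHAC1, an enzyme that degrades glutathione and a sensitive reporter of the ATF4 branch, was highest with minus2. It read 6.71, 7.07 and 6.92 in control, 7.02, 6.84 and 7.14 with the archetype, 7.37, 7.31 and 7.41 with minus2, and 7.24, 7.25 and 6.92 with plus2. The minus2 arrays were above all other arrays, and the other 3 groups overlapped. It rose with minus2 by 0.46 ± 0.11 log2 units (SE), 1.38-fold (limma adjusted p = 0.00758). The change was 0.24 ± 0.11 with plus2 (adjusted p = 0.123) and 0.10 ± 0.11 with the archetype (adjusted p = 0.568), and without plus2 replicate 3 the plus2 change passed at 0.35 (adjusted p = 0.0274).

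VLDLR encodes the very low density lipoprotein receptor, which takes up lipoproteins and is raised by ATF4 under stress of the endoplasmic reticulum. Control arrays read 8.64, 8.38 and 8.61, archetype arrays 8.53, 8.54 and 8.61, minus2 arrays 8.48, 8.37 and 8.46, and plus2 arrays 9.48, 9.19 and 9.45. All 3 plus2 arrays stood above all other arrays. VLDLR rose with plus2 by 0.83 ± 0.08 (SE), 1.78-fold, the largest change of the 10 genes in any comparison with control (limma adjusted p = 1.56e-05). With the archetype and minus2 it was at 0.02 ± 0.08 and -0.11 ± 0.08, with 95% intervals from -0.17 to 0.20 and from -0.29 to 0.08.

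PHGDH and PSAT1 encode the first and second enzymes of serine synthesis from a glycolytic intermediate. PSAT1 read 13.47, 13.65 and 13.44 in control, 13.84, 13.85 and 13.79 with the archetype, 13.62, 13.92 and 13.74 with minus2, and 13.69, 13.79 and 13.29 with plus2. The archetype arrays were all above the control arrays, yet the change of 0.31 ± 0.12 (SE) did not pass (limma adjusted p = 0.0739), nor did 0.24 ± 0.12 with minus2 and 0.07 ± 0.12 with plus2. Plus2 replicate 3 was the lowest of the 12 arrays for PSAT1. Without it the archetype and minus2 changes passed (adjusted p = 0.0132 and 0.0391), and the archetype change also passed in the fit of the 2 groups alone (adjusted p = 0.0108) and with array weights (adjusted p = 0.0346).

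PHGDH lay near the middle of gene means (percentile 47.2), with all 12 arrays between 5.24 and 5.44. MDA-MB-231 is known as a line with little PHGDH, and the arrays of all groups lay close together. Its changes were 0.06 ± 0.05, 0.05 ± 0.05 and 0.13 ± 0.05 log2 units (SE) with the archetype, minus2 and plus2 (limma adjusted p = 0.48, 0.567 and 0.0711). Without plus2 replicate 2 the plus2 change was 0.17 and passed (adjusted p = 0.02).

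SESN2 encodes sestrin 2, which restrains mTORC1 when leucine is scarce. It read 6.81, 6.95 and 6.90 in control, 6.95, 6.83 and 6.80 with the archetype, 6.85, 6.83 and 6.88 with minus2, and 7.12, 7.03 and 6.92 with plus2. All 3 mimics overlapped control. The changes were -0.03 ± 0.06, -0.04 ± 0.06 and 0.13 ± 0.06 (SE; limma adjusted p = 0.783, 0.717 and 0.112), and without plus2 replicate 3 the plus2 change was 0.18 and passed (adjusted p = 0.0356).

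By group means, the order was plus2, archetype, minus2, control for ASNS and minus2, archetype, plus2, control for DDIT3, and in both only the last step, to control, passed the test between neighbours. For TRIB3 the order was minus2, control, archetype, plus2, and only control and archetype did not differ in the test. For VLDLR (plus2, archetype, control, minus2) only the first step passed, and for ATF3 (plus2, archetype, control, minus2) only the step from archetype to control. No step passed for CHAC1, PSAT1, PHGDH or SESN2.

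The mimics were then compared with each other, 3 pairs in all, with p-values adjusted over all genes within each pair. Each pair shares its arrays with other comparisons. Between minus2 and the archetype 3 of the 10 genes differed, where 24.3% of all genes did. Between plus2 and the archetype 2 of the 10 differed, beside 28.9% of all genes, and between plus2 and minus2 6 of the 10, beside 38.7%. VLDLR was higher with plus2 than with the archetype by 0.82 ± 0.08 (SE; limma adjusted p = 3.24e-05) and than with minus2 by 0.94 ± 0.08 (adjusted p = 4.3e-06). TRIB3 was lower with plus2 than with either, by 0.44 ± 0.06 against the archetype (a difference of -0.44, adjusted p = 0.000151) and with a difference of -0.71 ± 0.06 from minus2, at which it was 1.64-fold lower (adjusted p = 1.72e-06). Against control TRIB3 fell with plus2 and rose with minus2. The rise with minus2 was small (0.20) and lost its call under 4 of 21 alternatives (highest limma adjusted p = 0.137). The direct TRIB3 difference between plus2 and minus2 passed in every fit tried. ASNS and DDIT3, in contrast, rose with both isomiRs.

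ATF3 was lower with minus2 than with the archetype (-0.36 ± 0.07 SE, limma adjusted p = 0.00318) and higher with plus2 than with minus2 (0.47 ± 0.07, adjusted p = 0.0003), while plus2 and the archetype did not differ in the test (0.10, 95% interval -0.05 to 0.26), except without plus2 replicate 2 (adjusted p = 0.0299). For TRIB3 minus2 also exceeded the archetype, by 0.27 ± 0.06 (adjusted p = 0.00494). With minus2, CHAC1 exceeded its archetype signal by 0.36 ± 0.11 (adjusted p = 0.0329), and ASNS was higher with plus2 than with minus2 by 0.28 ± 0.08 (adjusted p = 0.0221). SESN2 (0.17 ± 0.06, adjusted p = 0.0422) and ATF4 (0.13 ± 0.05, adjusted p = 0.0427) were slightly higher with plus2 than with minus2. SESN2 was not called between plus2 and the archetype (0.16 ± 0.06, adjusted p = 0.062) but passed without plus2 replicate 3 (adjusted p = 0.0207) or archetype replicate 1 (adjusted p = 0.0349). Each of the calls for CHAC1, ASNS, SESN2 and ATF4 was lost when single arrays were left out. For CHAC1 these were archetype replicates 1 and 2 and any minus2 replicate (highest adjusted p = 0.128), and for ASNS minus2 replicates 1 and 3 and plus2 replicates 1 and 2 (highest adjusted p = 0.0875). The ATF4 difference passed only without control replicate 1 or plus2 replicate 3 among the 12 omissions (highest adjusted p = 0.166). That of SESN2 was lost without archetype replicate 2, control replicate 3, any minus2 replicate or plus2 replicate 1 or 2 (highest adjusted p = 0.154).

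**Figure D3:**
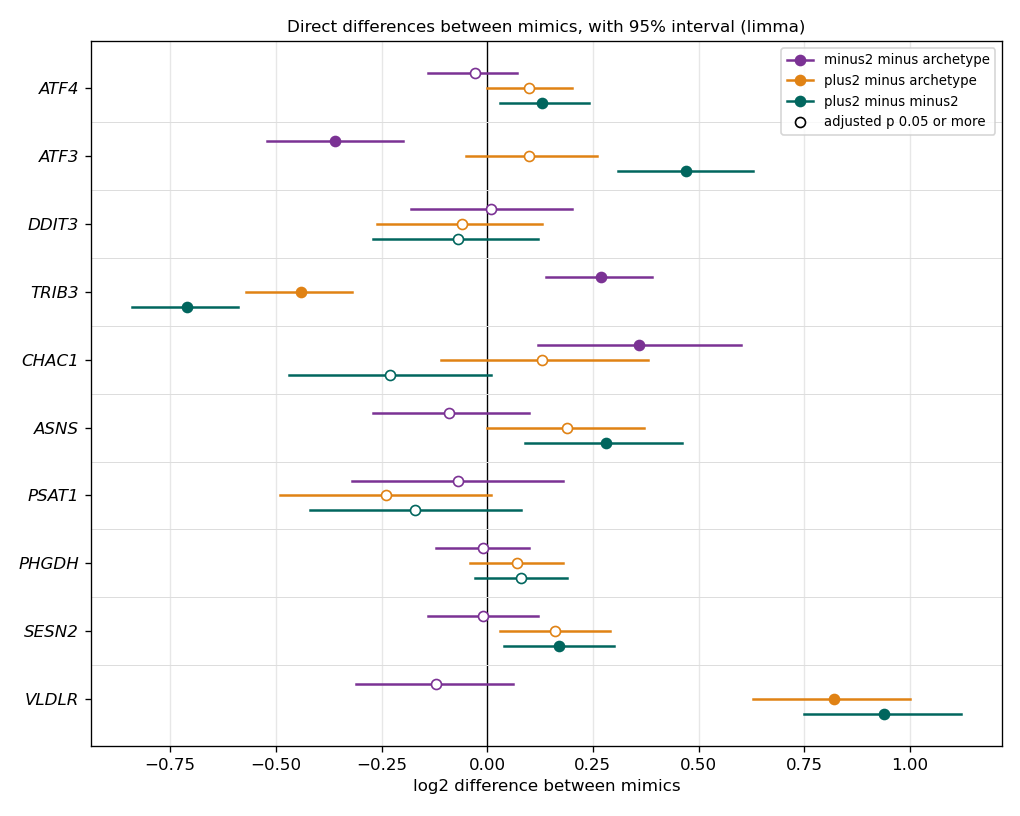
Log2 difference between mimics (horizontal axis) for each gene in the 3 direct comparisons, with its 95% interval from limma. Filled points passed the test. VLDLR is filled for both comparisons with plus2 (0.82 and 0.94), TRIB3 for all 3, and DDIT3, PSAT1 and PHGDH for none.

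Among promoter windows from RefSeq (GRCh38.p14, 250 bases before to 50 after each gene's start), the core of the element bound by ATF4 with C/EBP partners was searched as TGATGNAA on both strands. It was present for 3 of the 10 genes and for 1217 of 27305 genes (4.46%) with a window. The 10 genes were chosen as ATF4 and its known targets, so the higher share is no result about the mimics. Shown are the members that hold it, ASNS, CHAC1 and ATF3. They are written on the gene's strand with the match in capitals.
ASNS: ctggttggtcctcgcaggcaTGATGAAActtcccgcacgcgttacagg
CHAC1: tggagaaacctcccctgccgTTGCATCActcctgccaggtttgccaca
ATF3: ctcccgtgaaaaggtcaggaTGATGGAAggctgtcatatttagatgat
The ASNS match begins 68 bases before 1 of its 2 starts (chr7:97872449-97872496, minus strand), the CHAC1 match 209 bases before (chr15:40953242-40953289, plus strand) and the ATF3 match 191 bases before 1 of its 2 starts (chr1:212565196-212565243, plus strand). DDIT3, which rose with every mimic, VLDLR, which rose with plus2, TRIB3 and the other members had no match in these windows. Elements outside the windows were not searched, and a link between matches and changes was not tested. The cAMP response element TGACGTCA, searched in the same way, was found for none of the 10 genes and for 2.25% of all genes.

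Other genes of the response were taken from lists written with earlier results of these data known. Beside the list counts below, 14.3% of all genes tested rose and 10.3% fell with the archetype. The shares were 17.5% and 11.9% with minus2, and 17.4% and 16.2% with plus2. List counts were not tested against these shares. Amino acid transporters were mixed: of 10 tested, 4 rose and 2 fell with the archetype, 4 rose and 1 fell with minus2, and 5 rose and 2 fell with plus2. SLC7A5, the large neutral amino acid transporter LAT1, read 12.53 ± 0.04 (mean log2 signal and SD of 3 arrays) in control and 13.76 ± 0.03, 13.64 ± 0.08 and 13.87 ± 0.18 with archetype, minus2 and plus2. These rises of 1.23, 1.11 and 1.34 (SE 0.08, limma adjusted p = 4.85e-07, 1.15e-06 and 1.7e-07) exceeded every change of the 10 genes. The cystine transporter SLC7A11, which is also a target of NRF2, rose with minus2 (0.63 ± 0.07 SE) and plus2 (0.61 ± 0.07) and was at 0.05 ± 0.07 with the archetype. It differed between the archetype and either isomiR (adjusted p = 8.37e-05 for minus2 and 0.000122 for plus2). SLC7A1, a transporter of cationic amino acids, fell with minus2 (-0.61 ± 0.08), and SLC43A1, a transporter of large neutral amino acids, fell with plus2 (-0.63 ± 0.09) and the archetype (-0.30 ± 0.09).

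Of 7 tested genes of serine, one-carbon and related amino acid metabolism, 4 rose and none fell with the archetype, 6 rose and none fell with minus2, and 3 rose and 2 fell with plus2. CTH, which makes cysteine from cystathionine, rose by 0.53 ± 0.06 (SE), 0.23 ± 0.06 and 0.73 ± 0.06 with the archetype, minus2 and plus2. The mitochondrial folate enzyme MTHFD2 rose by 0.31 ± 0.07, 0.51 ± 0.07 and 0.55 ± 0.07, and the aspartate aminotransferase GOT1 by 0.48 ± 0.06, 0.28 ± 0.06 and 0.60 ± 0.06. PSPH, the last enzyme of serine synthesis, rose with minus2 by 0.16 ± 0.06 (adjusted p = 0.0454) and was at 0.13 ± 0.06 and 0.01 ± 0.06 with the archetype and plus2.

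Aminoacyl-tRNA synthetases, which load amino acids onto tRNAs, were split into 12 genes known as ATF4 targets and 6 tested others. Of the 12, 8 rose and 1 fell with the archetype, 9 rose and none fell with minus2, and 6 rose and 1 fell with plus2, with median changes of 0.37, 0.30 and 0.21. Of the 6 others 3, 5 and 2 rose, and 1 fell with plus2, with medians of 0.20, 0.21 and 0.03. The glycyl enzyme GARS1 rose by 0.65 ± 0.04 (SE), 0.65 ± 0.04 and 0.68 ± 0.04, with no difference called between mimics, and the threonyl enzyme TARS1 by 0.44 ± 0.05, 0.59 ± 0.05 and 0.33 ± 0.05. AARS1, the alanyl enzyme, went the other way: it fell from 11.87 ± 0.06 (SD) to 10.96 ± 0.04 with the archetype and to 10.42 ± 0.05 with plus2, and stood at 11.85 ± 0.01 with minus2. Its changes were -0.92 ± 0.04 and -1.45 ± 0.04 (SE, adjusted p = 9.59e-08 and 1.52e-09) against -0.03 ± 0.04 with minus2, and plus2 and minus2 differed by -1.43 ± 0.04 (adjusted p = 1.07e-09).

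**Figure D4:**
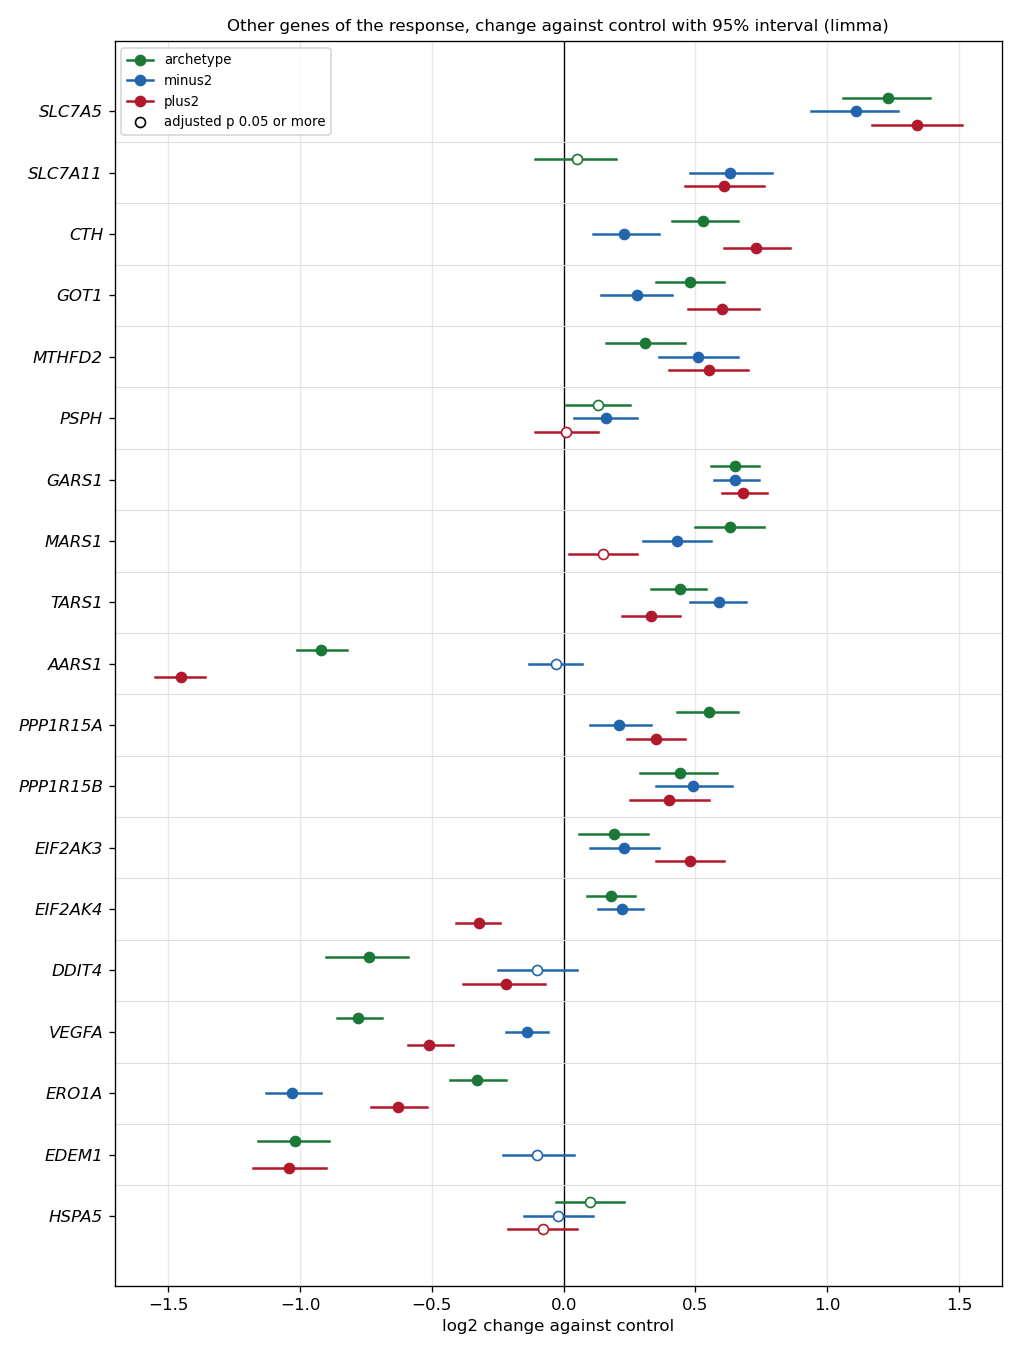
Log2 change against control (horizontal axis) of 19 further genes of the response with each mimic, with its 95% interval from limma and filled points for those that passed the test. SLC7A5 and GARS1 rise with all 3 mimics, AARS1 falls with the archetype and plus2 (-0.92 and -1.45), and ERO1A falls with all 3.

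Among 14 other ATF4 targets tested, more fell than rose with the archetype (2 rose, 5 fell) and plus2 (3 rose, 6 fell), and 3 rose and 3 fell with minus2. DDIT4, an inhibitor of mTORC1 also induced by hypoxia, fell with the archetype (-0.74 ± 0.07, SE) and plus2 (-0.22 ± 0.07) and was at -0.10 ± 0.07 with minus2, and VEGFA, an angiogenic factor, changed by -0.78 ± 0.04, -0.14 ± 0.04 and -0.51 ± 0.04 with the archetype, minus2 and plus2. The disulphide oxidase ERO1A fell with all 3, most with minus2 (-1.03 ± 0.05, adjusted p = 7.6e-08). VEGFA, ERO1A and DDIT4 are known targets of hypoxia signalling as well, and a part of that signalling here was not tested. The secreted stress factor GDF15 rose with minus2 by 0.69 ± 0.18 (adjusted p = 0.0143), and CEBPG, a partner of ATF4, rose with plus2 by 0.31 ± 0.09 (adjusted p = 0.0215). CEBPB, another partner, was not called with any mimic, with changes from -0.17 to -0.06.

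Upstream of ATF4, 8 of 13 genes for eIF2 kinases and phosphatases and their cofactors rose with the archetype and none fell, 7 rose and none fell with minus2, and 8 rose and 2 fell with plus2. PPP1R15A (GADD34), the stress-induced subunit that directs dephosphorylation of eIF2 and is itself an ATF4 target, rose from 6.77 ± 0.05 (SD, n = 3) to 7.32 ± 0.04, 6.98 ± 0.05 and 7.12 ± 0.08 with the archetype, minus2 and plus2 (limma adjusted p = 1.32e-05, 0.0083 and 0.000268). Its constitutive relative PPP1R15B rose by 0.44 ± 0.07 (SE), 0.49 ± 0.07 and 0.40 ± 0.07. EIF2AK3 (PERK), the kinase that senses unfolded proteins in the endoplasmic reticulum, rose by 0.19 ± 0.06, 0.23 ± 0.06 and 0.48 ± 0.06. EIF2AK4 (GCN2), the sensor of uncharged tRNA, rose with the archetype (0.18 ± 0.04) and minus2 (0.22 ± 0.04) and fell with plus2 (-0.32 ± 0.04), and plus2 differed from both in direct tests (adjusted p = 3.84e-06 and 7.59e-07). EIF2AK1 (HRI), activated by lack of haem and by mitochondrial stress, rose with the archetype (0.28 ± 0.05) and plus2 (0.16 ± 0.05). EIF2AK2 (PKR), the sensor of double-stranded RNA, was not called with any mimic, with changes of 0.05 ± 0.04, 0.01 ± 0.04 and 0.12 ± 0.04.

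Genes of eIF2 and of its exchange factor eIF2B gave 2 rises and 1 fall of 10 with the archetype, 4 and 2 with minus2, and 1 and 3 with plus2. EIF2B4 fell with minus2 (-0.63 ± 0.05 SE) and EIF2B1 with minus2 (-0.54 ± 0.06) and the archetype (-0.30 ± 0.06), and EIF2B2 rose with the archetype (0.42 ± 0.07) and minus2 (0.46 ± 0.07). In the ATF6 and XBP1 branch of the unfolded protein response, 1 of 18 tested genes rose and 3 fell with the archetype, 3 rose and 1 fell with minus2, and 4 rose and 4 fell with plus2. HSPA5 (BiP), the chaperone most used as a marker of that branch, had changes of 0.10 ± 0.06, -0.02 ± 0.06 and -0.08 ± 0.06. EDEM1, which directs misfolded glycoproteins to degradation, fell by 1.02 with the archetype and 1.04 with plus2 (changes of -1.02 ± 0.06 and -1.04 ± 0.06) and the stress sensor ERN1 by 0.71 and 0.61 (-0.71 ± 0.08 and -0.61 ± 0.08), and neither was called with minus2.

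**Figure D5:**
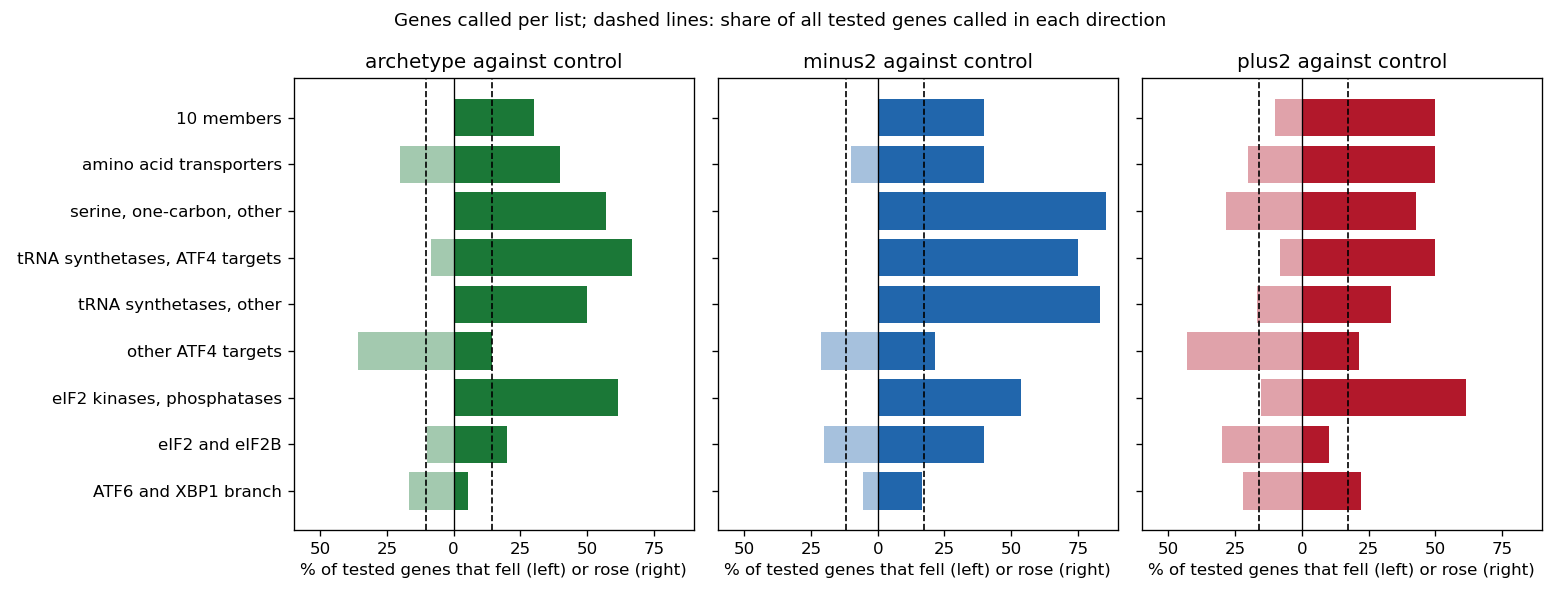
Share of tested genes of each list that rose (to the right) or fell (to the left, paler) with each mimic, in percent, with dashed lines at the shares of all tested genes called in each direction. The bars of both synthetase lists lie beyond the dashed line for rises in all 3 panels, whereas the other ATF4 targets extend further to the left than the line for falls.

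Relatives of the members were compared with them. CHAC2, the constitutive relative of CHAC1, rose with minus2 as CHAC1 did (0.79 ± 0.11 SE, limma adjusted p = 0.000179) and fell with plus2 (-0.48 ± 0.11). SESN1 rose with minus2 (0.50 ± 0.09) and plus2 (0.37 ± 0.09) and SESN3 with plus2 (0.56 ± 0.09), whereas SESN2 was not called; differences between these genes were not tested. Of 10 tested sestrin and p53 target genes, 1 rose and 1 fell with the archetype. With minus2 3 rose and 3 fell, and with plus2 4 rose and 3 fell. Over all genes tested, 14.3% rose and 10.3% fell with the archetype, 17.5% and 11.9% with minus2, and 17.4% and 16.2% with plus2. Of 6 tested relatives of VLDLR, 2 rose with plus2, 2 fell with minus2, and 1 rose and 2 fell with the archetype. LRP6 and SORL1 rose with plus2 (0.28 ± 0.04 and 0.52 ± 0.05) and fell with minus2 (-0.77 ± 0.04 and -0.21 ± 0.05). LRP6 also fell with the archetype (-0.74 ± 0.04). LRP1 fell with the archetype (-0.36 ± 0.09) and was not called with plus2 (0.22 ± 0.09). LRP8, the other receptor of reelin, rose with the archetype by 0.21 ± 0.06 and was at 0.10 ± 0.06 with plus2. TRIB2, a paralog of TRIB3, rose with minus2 by 0.30 ± 0.05, fell with the archetype (-0.30 ± 0.05) and was at 0.04 ± 0.05 with plus2. EGLN3, a prolyl hydroxylase reported to act on ATF4, rose with minus2 (0.74 ± 0.08) and plus2 (0.89 ± 0.08). BTRC, a subunit of the ubiquitin ligase that marks ATF4 for degradation, rose with the archetype (0.36 ± 0.04) and plus2 (0.39 ± 0.04). It fell with minus2 (-0.30 ± 0.04). FBXW11, of the same list of TRIB3 relatives and ATF4 partners, rose with the archetype (0.14 ± 0.05) and fell with minus2 (-0.41 ± 0.05). With plus2 FBXW11 was at -0.03 ± 0.05. Of the 6 tested genes of that list, 2 rose and 1 fell with the archetype. With minus2 2 rose and 2 fell, and with plus2 2 rose and none fell. Among 7 tested NRF2 targets 1 rose and 2 fell with the archetype, 2 rose and 2 fell with minus2 and 4 rose with plus2, with GCLM, a subunit of the glutathione synthesis enzyme, at -0.52 ± 0.04, -0.25 ± 0.04 and 0.48 ± 0.04.

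The core TGATGNAA was present for 4.46% of all genes with a promoter window. Of the 12 genes named from these lists that rose with every mimic, 4 had a TGATGNAA match in a promoter window. Those that lie wholly before the start are shown on the gene's strand, for GOT1 (chr10:99430795-99430842, minus strand), GARS1 (chr7:30594825-30594872, plus strand) and PPP1R15B (chr1:204412017-204412064, minus strand).
GOT1: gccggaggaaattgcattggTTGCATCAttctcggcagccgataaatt
GARS1: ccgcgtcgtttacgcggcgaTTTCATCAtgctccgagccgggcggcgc
PPP1R15B: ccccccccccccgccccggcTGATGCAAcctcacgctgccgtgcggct
The window of SLC7A5 had no TGATGNAA match. The 12 genes were picked by their rises here, from lists that include known ATF4 targets, so their share is no result about the mimics. Among these genes TGACGTCA was found for PPP1R15A, 58 bases before its start, beside 2.25% of all genes.

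Genes with the most similar pattern over the 12 arrays were looked up for ATF4 and for TRIB3, the member with the highest F statistic (55.2). For ATF4 these were CUL1 (Pearson's r = 0.933), N4BP2 (r = 0.925), HSF2BP (r = 0.922), MRPS35 (r = 0.911) and MAP1LC3C (r = 0.904). For TRIB3 they were SNX17 (r = 0.992), STARD3 (r = 0.988), COLGALT1 (r = 0.988), ARPC4 (r = 0.981) and PPFIBP1 (r = 0.98). These r values describe likeness over arrays that fall into 4 groups, and they were picked as the highest among the protein-coding genes tested. The mean log2 signal of SNX17 was highest with minus2 (8.74), then in control (8.52), with the archetype (8.43) and with plus2 (7.87), the same order as for TRIB3.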

How the data were processed

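RNA of 12 arrays was analysed from log2 signals deposited by the authors, 1 value per feature and array. The submitters' processing notes list RMA and Expression Console 1.4.1 but give no settings. As background, RMA corrects background, normalises by quantiles and summarises probes. The log2 scale was inferred from the values (1.79 to 19.9), and 100 ng of RNA was labelled per array, so total RNA per cell was not measured. The number of arrays limits the precision.

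Of 70523 features, 67528 were transcript clusters, and 23781 of them carried 1 gene symbol in the platform annotation. Symbols were updated through RefSeq (GRCh38.p14), and per gene the cluster with the highest mean was kept. Genes above a mean log2 signal of 4.54 were tested, which left out the lowest 33.3%. A linear model with 1 mean per group was fitted to the 12 arrays (limma 3.58.1, R 4.3.3; lmFit, eBayes; 8 residual degrees of freedom), with Benjamini-Hochberg adjustment over all genes within a comparison and a threshold of 0.05. Intervals are 95% intervals from the moderated fit. Exact permutation of 3 against 3 arrays has a smallest two-sided p of 0.1 and was not used. The fit was tested on simulated data with independent noise and, for each gene, the same SD in every group. Unequal spread between groups and correlation between arrays were not simulated.

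Members and lists were chosen with earlier results of these data known, so counts over them are descriptions. Named genes were all members, up to 4 called genes per list with the largest changes, 15 genes fixed by name, of which 1 is not reported here, and the 5 protein-coding genes most like ATF4 and most like the member with the highest F. Arrays were not paired by replicate number. No batch is given in the labels. Alternatives were centring, added quantile normalisation, other filters, all clusters, fits of 2 groups, array weights, a variance trend, a replicate block and omission of each array.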

Additional observations from a re-analysis of the deposited data

How the results depend on the processing

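Of 60 changes (10 genes in 6 comparisons), 24 were called, 16 of them under every alternative tried, and 8 lost the call under at least 1. No called change turned its sign. The 16 include all changes of ASNS, DDIT3 and CHAC1 called against control, and those of VLDLR, TRIB3 and ATF3 with plus2. Of the 36 uncalled changes, 8 were called under at least 1 alternative. With all transcript clusters tested as they are, 1 of the 10 genes differed between minus2 and the archetype in place of 3, and 3 between plus2 and minus2 in place of 6. This setting tests 67528 clusters, over which p-values were adjusted, and all 8 lost calls were lost in it. Leaving out 1 array at a time gave 3 to 6 genes between plus2 and minus2, with 3 each without minus2 replicate 1, minus2 replicate 3, plus2 replicate 1 or plus2 replicate 2. Uncalled changes near 0 changed sign when arrays were left out. The ranges were -0.08 to 0.00 for SESN2 and -0.07 to 0.06 for VLDLR with the archetype, -0.01 to 0.04 for ATF4 with minus2, -0.03 to 0.22 for PSAT1 with plus2, and, for minus2 minus archetype, -0.06 to 0.06 for DDIT3, -0.05 to 0.02 for PHGDH and -0.04 to 0.04 for SESN2. SESN2 in minus2 minus archetype was at 0.01 with quantile normalisation added and 0.01 with array weights. With the replicate number as a block (replicate block), the genes called were 4 with the archetype (PSAT1 added), 4 with minus2 and 6 with plus2, and 2, 3 and 4 for minus2 minus archetype, plus2 minus archetype (ASNS added, adjusted p = 0.0205) and plus2 minus minus2; the calls lost were CHAC1 for minus2 minus archetype (adjusted p = 0.0549) and, for plus2 minus minus2, ATF4 (adjusted p = 0.0524) and SESN2 (adjusted p = 0.0516). Residual correlations were over 0.1 in 9 of 18 same-numbered pairs of arrays (median 0.0994) and in 1 of 36 differently numbered pairs (median -0.0324). This hints at shared numbers, but not every same-numbered pair was over 0.1 and the labels tie the numbers to nothing, so the arrays were not taken as pairs. The share of rises among all calls moved by no more than 10 percentage points under either scaling. Depth in the sense of reads does not apply to arrays, and no background level was measured here.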
